A study of Mus musculus with 4 samples.

Results

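The colony-stimulating factors and their receptors were followed in mouse peritoneal macrophages that either lacked or kept Ch25h, the gene for cholesterol 25-hydroxylase, which makes the oxysterol 25-hydroxycholesterol. The 8 genes were chosen by name and comprised the ligands Csf1, Csf2 and Csf3 and the receptor genes Csf1r, Csf2ra, Csf2rb, Csf2rb2 and Csf3r. Each matched a single locus, so all 8 were found among 23735 loci, and 7 of them reached the level at which loci were tested. The Ch25h_KO group came from ApoE-/-/Ch25h-/- mice and the Ch25h_WT group from ApoE-/-/Ch25h+/+ mice, with 2 libraries in each. All mice were C57BL/6, 6 weeks old, and both groups carry the ApoE-/- label, so the labels give no group with intact Apoe. Thioglycolate at 3% had been injected 3 days before the peritoneal cells were collected, and the cells were cultured before total RNA was extracted. The series gives 12 mice per group and biological duplicates without saying how mice were assigned to libraries, so the p-values reflect library-to-library spread, which may be partly technical. The genotypes are given for whole animals, so the deletion is not restricted to macrophages, and other cells recruited into the peritoneum can be present in such cultures.

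Each ligand acts through its own receptor. CSF1 (M-CSF) binds CSF1R, a receptor tyrosine kinase on which macrophage survival and differentiation depend. CSF2 (GM-CSF) binds the alpha chain CSF2RA, which signals through the common beta chain CSF2RB, and this beta chain also serves the receptors for IL-3 and IL-5. Mice carry an additional beta chain gene, Csf2rb2, whose product serves IL-3 alone. CSF3 (G-CSF) binds CSF3R and drives the production and release of neutrophils. Activated macrophages are a known source of CSF3, and the CSF2 and CSF3 receptors signal through JAK kinases and STAT factors.

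The deposited values are FPKM (fragments per kilobase of transcript, scaled to the mapped total of each library), a unit corrected for length, so levels can be set against each other between genes. Whole-number steps among low values gave a median implied depth of 10400000 and 9680000 fragments in Ch25h_KO replicates 1 and 2, and of 12500000 and 10100000 in Ch25h_WT replicates 1 and 2. Ch25h was 4.25 and 5.53 FPKM in the Ch25h_KO libraries, against 63.3 and 65.3 FPKM in the Ch25h_WT libraries. Apoe was 3683 and 3373 FPKM in the Ch25h_KO libraries, against 614 and 610 FPKM in the Ch25h_WT libraries, although both groups carry the same ApoE label. Such levels put the ApoE genotype label in doubt, and FPKM of a locus do not show whether its transcript is functional. All differences below therefore stand between groups that also differ in Apoe transcript, and the part of each gene cannot be told apart. All 8 macrophage markers on the list were tested, 3 were higher and 5 lower in Ch25h_KO (median log2 change -0.021), and none passed with limma. There were 2 higher and 0 lower markers at unadjusted p under 0.05, beside 9.38% and 11.5% of all tested loci. Adgre1, which encodes F4/80, was 381 and 388 FPKM in Ch25h_KO and 418 and 425 FPKM in Ch25h_WT (limma adjusted p = 0.247). Cd14, the lipopolysaccharide co-receptor, was 6870 and 6751 FPKM in Ch25h_KO and 5178 and 5288 FPKM in Ch25h_WT (limma adjusted p = 0.078).

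Csf3 rose in the libraries without Ch25h, and it was the only member to pass the test across all loci. Csf2ra and Csf3r were higher in Ch25h_KO and Csf1 and Csf1r lower, with groups that did not overlap, but none of these passed after adjustment. The genes of the beta chains, Csf2rb and Csf2rb2, differed least. Differences were tested with limma on the log2(FPKM + 1) scale for the 10074 loci whose mean reached 1 FPKM, at a Benjamini-Hochberg adjusted p of 0.05. With it 1 of 7 tested members passed, as a rise, where 0.437% of all tested loci passed in either direction and 0.228% as rises. At unadjusted p under 0.05 there were 3 higher members (9.38% of all tested loci) and 1 lower member (11.5% of all tested loci). The groups did not overlap for 6 of the 7, and this was so for 53.7% of all tested loci. Of these, 4 members were higher and 2 lower, beside 23.4% and 30.3% of all tested loci. The median log2 change was 0.057 over the 7 tested members and -0.014 over all tested loci.

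**Figure D1:**
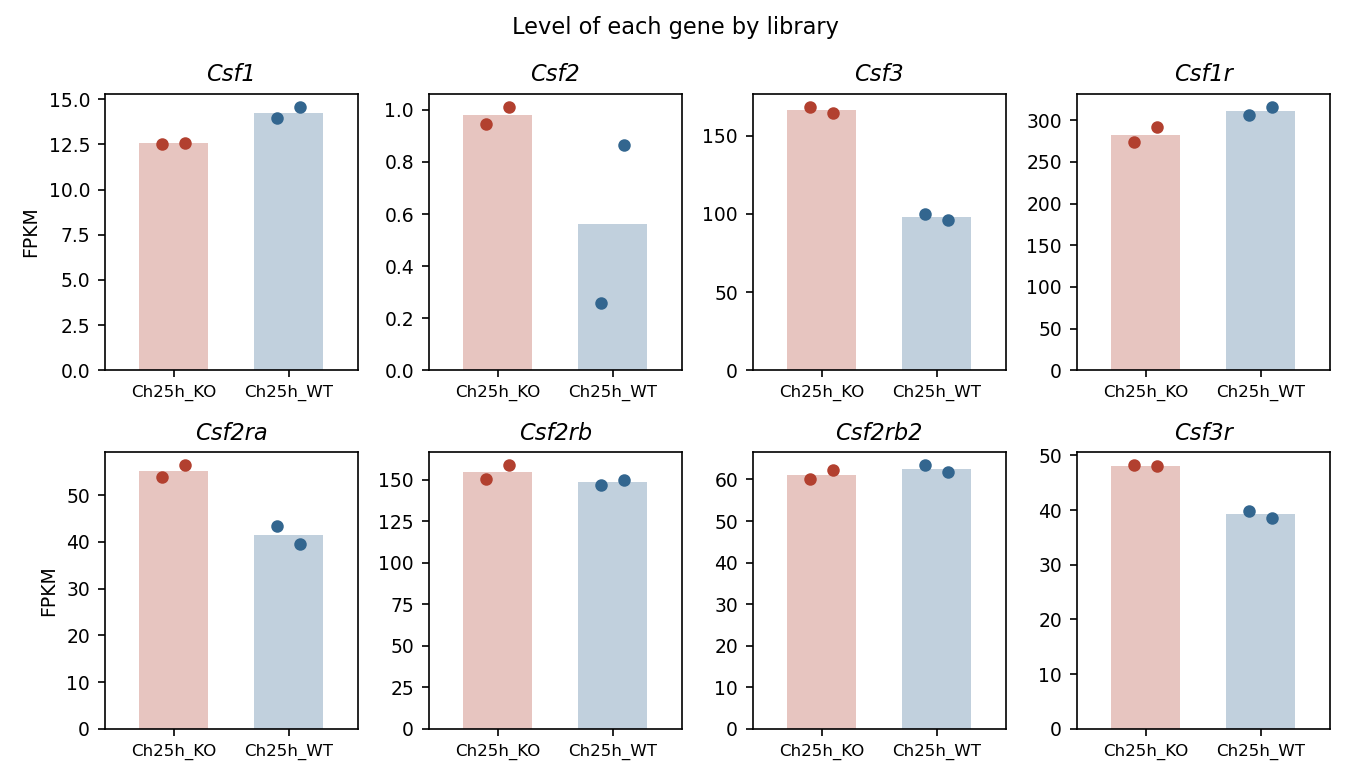
FPKM of each gene (vertical axis, from 0, its own scale per gene) in Ch25h_KO and Ch25h_WT, with 1 point per library and a bar at the mean of 2 libraries. Csf3 lies at 165 to 169 FPKM in Ch25h_KO and 96.2 to 99.8 FPKM in Ch25h_WT, whereas the ranges of Csf2rb2 overlap in part between the groups.

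In order of level, Csf1r stood first in every library, above 97.0% to 97.3% of the tested loci. In the Ch25h_KO libraries Csf3 came next, then Csf2rb, Csf2rb2, Csf2ra, Csf3r, Csf1 and Csf2, and no neighbours in that order overlapped between the libraries. In the Ch25h_WT libraries Csf2rb came before Csf3, and the remaining order was the same. There the ranges of Csf2ra at 39.5 to 43.4 FPKM and Csf3r at 38.6 to 39.9 FPKM overlapped. Within each library Csf2ra was the higher, at 43.4 against 39.9 FPKM in replicate 1 and 39.5 against 38.6 FPKM in replicate 2. The difference between these genes was not tested. Csf3 was thus above Csf2rb in both Ch25h_KO libraries and below it in both Ch25h_WT libraries.

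Among the ligands, Csf3 (locus XLOC_003067) was 169 and 165 FPKM in the Ch25h_KO libraries, against 99.8 and 96.2 FPKM in the Ch25h_WT libraries. Both Ch25h_KO values lay above both Ch25h_WT values, and the nearest libraries of the groups were 64.9 FPKM apart. The mean was 167 ± 2.70 FPKM in Ch25h_KO and 98.0 ± 2.58 FPKM in Ch25h_WT (SD, n = 2 each), a ratio of 1.70. The log2 change was 0.76 (SE 0.055, 95% interval 0.62 to 0.90, limma adjusted p = 0.028), and Csf3 ranked 20 of 10074 loci by p. The change kept its size with any library left out (0.73 to 0.79), but the call was lost each time, with limma adjusted p between 0.174 and 0.197. It was also lost with no filter on low values (limma adjusted p = 0.057).

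Csf1 (XLOC_013798), the main growth factor of macrophages, was expressed at a much lower level than its receptor. It was 12.5 and 12.6 FPKM in the Ch25h_KO libraries, against 13.9 and 14.6 FPKM in the Ch25h_WT libraries. The groups did not overlap, but they lay only 1.35 FPKM apart at the nearest libraries. The log2 change was -0.17 (SE 0.055, 95% interval -0.31 to -0.026) with an unadjusted p of 0.029 and a limma adjusted p = 0.197. Csf1 transcripts encode secreted and membrane-bound forms, which values per locus do not separate. The ratio of Csf3 to Csf1 FPKM within a library was 13.4 and 13.1 in Ch25h_KO and 7.16 and 6.59 in Ch25h_WT.

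Csf2 (XLOC_003488), the GM-CSF gene, was close to the limit of detection. It was 0.946 and 1.01 FPKM in the Ch25h_KO libraries, against 0.260 and 0.866 FPKM in the Ch25h_WT libraries. Scaled by relative depth, the smallest whole numbers that fit these values are 9 and 9 fragments in Ch25h_KO and 3 and 8 fragments in Ch25h_WT. The exact Poisson 95% intervals, which cover counting error only, were 4.12 to 17.1 for 9 fragments, 0.619 to 8.77 for 3 and 3.45 to 15.8 for 8, and all overlap. The Ch25h_KO values lay above both Ch25h_WT values, yet the ratio of means of 1.74 became 1.13 without Ch25h_WT replicate 1 and 3.77 without Ch25h_WT replicate 2. Under the filter Csf2 was not tested, and with no filter its log2 change was 0.37 (SE 0.20, 95% interval -0.19 to 0.93, limma adjusted p = 0.453 over 15211 loci). A difference in Csf2 was therefore not detected, with few fragments and 2 libraries per group.

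Among the receptors, Csf1r (XLOC_009719) had the highest level of the 8 genes. It was 274 and 291 FPKM in the Ch25h_KO libraries, against 306 and 316 FPKM in the Ch25h_WT libraries. The groups did not overlap, and the gap of 14.9 FPKM between the nearest libraries was smaller than the 17.4 FPKM between the replicates of Ch25h_KO. The log2 change was -0.14 (SE 0.060, 95% interval -0.30 to 0.019, limma adjusted p = 0.283). The ratio of Csf1r to Csf1 was 21.8 and 23.2 in Ch25h_KO and 22.0 and 21.7 in Ch25h_WT, so the ranges of receptor over ligand overlapped.

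Csf2ra (XLOC_010822), the chain that gives the GM-CSF receptor its specificity, was 53.9 and 56.4 FPKM in the Ch25h_KO libraries, against 43.4 and 39.5 FPKM in the Ch25h_WT libraries. Both Ch25h_KO libraries were above both Ch25h_WT libraries, with means of 55.2 ± 1.79 FPKM in Ch25h_KO and 41.4 ± 2.73 FPKM in Ch25h_WT (SD, n = 2 each). The log2 change was 0.41 (SE 0.070, 95% interval 0.22 to 0.59) with an unadjusted p of 0.0027 and a limma adjusted p = 0.102. It passed when limma's trend and robust options modelled the spread (adjusted p = 0.0040), a setting in which 786 of the 10074 loci passed.

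Each beta chain gene had similar values in Ch25h_KO and Ch25h_WT. Csf2rb (XLOC_006918), the signalling chain shared by the GM-CSF, IL-3 and IL-5 receptors, was 150 and 159 FPKM in the Ch25h_KO libraries, against 147 and 150 FPKM in the Ch25h_WT libraries. Its groups were 0.380 FPKM apart, well within the spread of the replicates, and the log2 change was 0.057 (95% interval -0.095 to 0.21, limma adjusted p = 0.616). Csf2rb2 (XLOC_007350) was 60.1 and 62.3 FPKM in the Ch25h_KO libraries, against 63.4 and 61.7 FPKM in the Ch25h_WT libraries. These groups overlapped, with a log2 change of -0.032 (95% interval -0.18 to 0.11, limma adjusted p = 0.775).

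Csf2rb and Csf2rb2 are similar genes, and reads can be shared between them. Of the distinct 50-base windows of their coding transcripts in GENCODE vM21, 17.1% of those of Csf2rb and 18.8% of those of Csf2rb2 were identical in the other gene. At 75 bases the shares were 9.97% and 10.9%. How the authors' counting assigned such reads is not given in the sources used here, so each single level is uncertain by this overlap. The sum of both genes was 210 and 221 FPKM in Ch25h_KO and 211 and 212 FPKM in Ch25h_WT. Csf2rb over Csf2rb2 was 2.50 and 2.55 in Ch25h_KO and 2.32 and 2.43 in Ch25h_WT.

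The ratio of beta to alpha chain transcripts lay further apart between the groups. Csf2rb over Csf2ra was 2.79 and 2.81 in the Ch25h_KO libraries, against 3.39 and 3.79 in the Ch25h_WT libraries. The beta chain was in excess in all 4 libraries, and its excess was smaller in both Ch25h_KO libraries. This ratio was not tested.

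**Figure D2:**
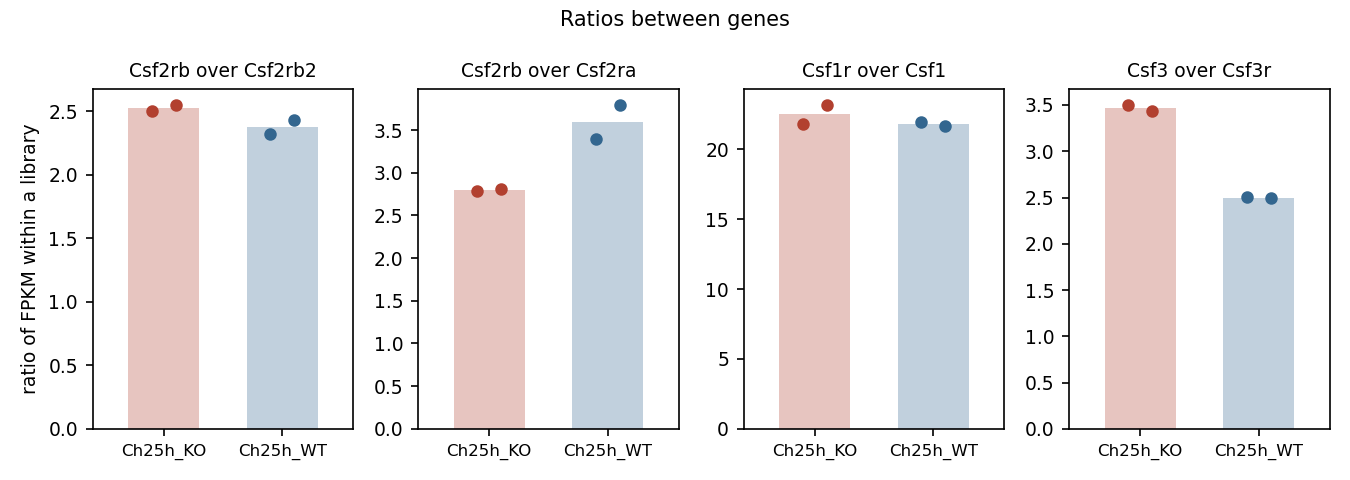
Ratios of FPKM between genes within a library (vertical axis, from 0), with 1 point per library and a bar at the mean of 2 libraries. Csf2rb over Csf2ra is 2.79 to 2.81 in Ch25h_KO and 3.39 to 3.79 in Ch25h_WT, and Csf1r over Csf1 overlaps between the groups.

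Csf3r (XLOC_014383), the G-CSF receptor and a gene best known from neutrophils, was 48.2 and 48.0 FPKM in the Ch25h_KO libraries, against 39.9 and 38.6 FPKM in the Ch25h_WT libraries. The Ch25h_KO libraries agreed within 0.156 FPKM and both stood 8.15 FPKM or more above Ch25h_WT. The log2 change was 0.29 (SE 0.053, 95% interval 0.15 to 0.43) with an unadjusted p of 0.0035 and a limma adjusted p = 0.110. Like Csf2ra it passed with the trend and robust options (adjusted p = 0.0089). Csf3 over Csf3r was 3.50 and 3.43 in Ch25h_KO and 2.50 and 2.49 in Ch25h_WT, so the ligand stood further above the receptor in both Ch25h_KO libraries. The difference in this ratio between the groups was not tested.

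Promoter sequence is shown for Csf2ra and Csf3r, the receptor genes that were higher together in Ch25h_KO. The 250 bases before the RefSeq start (GRCm38.p6) were read 5′ to 3′ on the gene's strand, and 5 of the 8 members were matched. Capitals mark matches on either strand to the PU.1 core GAGGAA, the C/EBP motif TTGCNNAA, the AP-1 motif TGANTCA, the cAMP response element TGACGTCA and the STAT motif TTCNNNGAA. The Csf2ra sequence is chr19:61228419-61228668 on the minus strand and the Csf3r sequence is chr4:126024409-126024658 on the plus strand.
Csf2ra: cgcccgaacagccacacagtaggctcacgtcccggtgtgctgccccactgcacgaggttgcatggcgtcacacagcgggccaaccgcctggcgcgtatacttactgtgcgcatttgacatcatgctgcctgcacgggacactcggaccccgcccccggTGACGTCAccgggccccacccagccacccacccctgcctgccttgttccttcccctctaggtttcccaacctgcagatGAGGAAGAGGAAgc
Csf3r: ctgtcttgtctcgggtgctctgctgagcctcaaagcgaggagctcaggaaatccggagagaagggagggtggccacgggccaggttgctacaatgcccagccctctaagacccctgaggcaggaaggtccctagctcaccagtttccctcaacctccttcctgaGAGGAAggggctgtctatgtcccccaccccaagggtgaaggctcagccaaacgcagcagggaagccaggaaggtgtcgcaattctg
Csf2ra held 2 adjoining PU.1 core matches just before its start and 1 cAMP response element, and Csf3r held 1 PU.1 core match. Among 27025 RefSeq promoters of the same length, 23.1% held the PU.1 core and 1.62% the cAMP response element. The C/EBP, AP-1 and STAT motifs, found in 9.55%, 6.87% and 7.18% of promoters, had no match in either window. Of the other matched members, Csf2rb2 held 1 PU.1 core and 1 STAT match, Csf2 held 1 C/EBP match, and Csf1 held none of the 5 motifs. These letters were searched with the sequences in view, and a match is not evidence that a factor binds there.

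**Figure D3:**
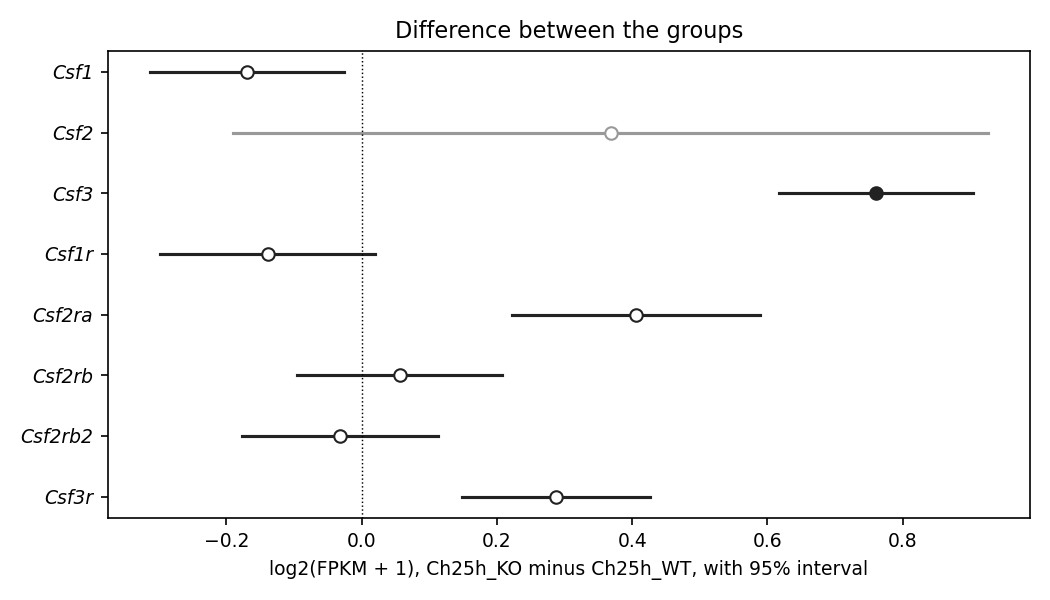
Difference of log2(FPKM + 1), Ch25h_KO minus Ch25h_WT, for each gene (horizontal axis) with its 95% interval from limma. The filled point, Csf3 at 0.76, is the only one with an adjusted p under 0.05, and the grey line is Csf2, which was tested with no filter on low values.

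Neutrophil markers did not all lie on the side of Csf3 and Csf3r. Of 12 such genes 11 were matched and 5 were under 1 FPKM in all 4 libraries, and the summed level was 120 and 119 FPKM in Ch25h_KO and 73.8 and 84.3 FPKM in Ch25h_WT. S100a8, a calcium-binding protein abundant in neutrophils and induced in activated macrophages, made up most of it, at 99.0 and 98.7 FPKM in Ch25h_KO and 56.3 and 66.6 FPKM in Ch25h_WT (limma adjusted p = 0.078). Mpo, the myeloperoxidase of neutrophil granules, was listed at 0 in both Ch25h_KO libraries and was 0.0614 and 0.0384 FPKM in Ch25h_WT. Elane, neutrophil elastase, was listed at 0 in both Ch25h_KO libraries and in Ch25h_WT replicate 1, and the chemokine receptor gene Cxcr2 was 0.492 and 0.428 FPKM in Ch25h_KO and 0.507 and 0.665 FPKM in Ch25h_WT. Camp, a granule peptide gene, was 0.880 and 0.471 FPKM in Ch25h_KO and 0.906 and 1.36 FPKM in Ch25h_WT. On the side of Csf3, Ngp was 0.0911 and 0.292 FPKM in Ch25h_KO and was listed at 0 in both Ch25h_WT libraries. Ltf was 0.147 FPKM in Ch25h_KO replicate 2 and was listed at 0 in the other libraries. Mpo, Elane, Cxcr2, Camp, Ngp and Ltf were under the filter and were named after their values were seen. The filter on low values left 3 markers, S100a8, S100a9 and Stfa2l1, of which Stfa2l1 reached it through its Ch25h_KO level alone. S100a9 was 15.0 and 16.5 FPKM in Ch25h_KO and 13.9 and 13.4 FPKM in Ch25h_WT. None of the 3 passed with limma, and 3 were higher and 0 lower at unadjusted p under 0.05, beside 9.38% and 11.5% of all tested loci. The part of neutrophil RNA in the Csf3 and Csf3r values was not tested, and in bulk samples fewer cells of a type and less RNA per cell cannot be told apart.

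Fibroblasts and mesothelial cells also make colony-stimulating factors. The summed level of 10 of their markers was 4.997 and 4.15 FPKM in Ch25h_KO and 1.61 and 1.39 FPKM in Ch25h_WT, and 9 of the 10 were under 1 FPKM in every library. Dcn, which encodes the matrix proteoglycan decorin, was the tested member, at 2.47 and 1.53 FPKM in Ch25h_KO and 0.712 and 0.452 FPKM in Ch25h_WT (limma adjusted p = 0.111). Dcn reached the filter on low values through its Ch25h_KO level alone, so its p-value is no independent support for a difference. Whether such cells contribute to the Csf3 values was not tested. Markers of monocytes, which carry both Csf1r and Csf2ra, summed to 119 and 127 FPKM in Ch25h_KO and 110 and 109 FPKM in Ch25h_WT. Beside 0.437% of all tested loci, 1 of 6 tested markers passed. That was Ly6c2, at 14.3 and 17.3 FPKM in Ch25h_KO and 3.12 and 2.70 FPKM in Ch25h_WT (limma adjusted p = 0.012), whose level is uncertain because Ly6c1 is nearly identical. Vcan, also a monocyte marker, was lower in Ch25h_KO without passing (log2 change of -0.26), and Nr4a1 had a log2 change of 0.17. Mast cells and basophils express the beta chains, and their 9 markers summed to 158 and 161 FPKM in Ch25h_KO and 226 and 231 FPKM in Ch25h_WT. Of 7 tested, 0 passed with limma. At unadjusted p under 0.05, 0 were higher and 5 lower, beside 9.38% and 11.5% of all tested loci, led by the mast cell proteases Cpa3 and Tpsb2. Cpa3 was 20.2 and 17.9 FPKM in Ch25h_KO against 31.7 and 31.0 FPKM in Ch25h_WT. Tpsb2 was 35.4 and 39.5 FPKM in Ch25h_KO against 58.7 and 61.2 FPKM in Ch25h_WT. The part of these shifts in the receptor values was not tested.

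Lymphoid cells are the main textbook source of GM-CSF. Of 11 markers of T, NK and innate lymphoid cells 7 were under 1 FPKM in all 4 libraries, the summed level was 21.9 and 21.7 FPKM in Ch25h_KO and 20.2 and 18.8 FPKM in Ch25h_WT, and most of it was the IL-7 receptor gene Il7r at 15.7 and 14.5 FPKM in Ch25h_KO and 14.7 and 13.9 FPKM in Ch25h_WT. None of 3 tested passed with limma, and 0 had an unadjusted p under 0.05, beside 20.9% of all tested loci. B cell markers summed to 285 and 300 FPKM in Ch25h_KO and 317 and 321 FPKM in Ch25h_WT, so B cell RNA was present in all 4 libraries. Endothelial markers summed to 4.24 and 4.54 FPKM in Ch25h_KO and 5.11 and 5.27 FPKM in Ch25h_WT, with Tie1 and Tek listed at 0 in every library. Eosinophil markers, relevant to IL-5 signalling, summed to no more than 2.70 FPKM in Ch25h_KO and 2.10 FPKM in Ch25h_WT, with Epx listed at 0 throughout.

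The related ligands Il34, Il3 and Il5 were near the limit of detection. Il34, the alternative ligand of CSF1R, was listed at 0 in 3 libraries and was 0.0607 FPKM in Ch25h_KO replicate 2. Il3 was listed at 0 in both Ch25h_KO libraries and was 0.222 and 0.278 FPKM in Ch25h_WT. Il5 was 0.394 and 0.421 FPKM in Ch25h_KO, against 0.108 and 0 FPKM in Ch25h_WT. Il3ra, the IL-3 receptor alpha chain that pairs with either beta chain, was well expressed at 19.0 and 16.8 FPKM in Ch25h_KO and 16.2 and 14.2 FPKM in Ch25h_WT, and its groups did not overlap. Il5ra, the alpha chain for IL-5, was 1.98 FPKM in both Ch25h_KO libraries and 1.59 and 1.53 FPKM in Ch25h_WT (limma adjusted p = 0.132). Kit, the stem cell factor receptor carried by mast cells, was 3.56 and 4.22 FPKM in Ch25h_KO and 5.22 and 4.66 FPKM in Ch25h_WT (limma adjusted p = 0.202). Of 11 genes on this list 5 were tested, and 0 passed with limma. The list held 1 higher and 1 lower gene at unadjusted p under 0.05, beside 9.38% and 11.5% of all tested loci.

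The signal transducers downstream of these receptors had a median log2 change close to that of all tested loci. Of 26 tested, 0 passed with limma, and the median log2 change was -0.022. Only 1 was higher and 1 lower at unadjusted p under 0.05, beside 9.38% and 11.5% of all tested loci. Stat3, the main STAT factor of the G-CSF receptor, was 97.7 and 102 FPKM in Ch25h_KO and 88.2 and 87.9 FPKM in Ch25h_WT (limma adjusted p = 0.185). Stat5a, which acts downstream of the beta chain, was 6.95 and 6.50 FPKM in Ch25h_KO and 7.73 and 7.40 FPKM in Ch25h_WT (limma adjusted p = 0.258). Cbl, the ubiquitin ligase that directs activated CSF1R to degradation, was 17.0 and 20.0 FPKM in Ch25h_KO and 22.5 and 22.0 FPKM in Ch25h_WT (limma adjusted p = 0.210). The kinase gene Lyn did not pass, at a log2 change of 0.13.

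Feedback and target genes of STAT5 and STAT3 were counted next. Of 15 tested, 11 were higher and 4 lower in Ch25h_KO, 0 passed with limma, and 5 were higher and 0 lower at unadjusted p under 0.05, with a median log2 change of 0.067. Among all tested loci 4599 were higher and 5475 lower, and 9.38% were higher and 11.5% lower at unadjusted p under 0.05. Osm, which encodes the cytokine oncostatin M, was 47.2 and 43.2 FPKM in Ch25h_KO and 32.6 and 33.7 FPKM in Ch25h_WT (limma adjusted p = 0.097). Socs2, a feedback inhibitor of JAK signalling, was 1.99 and 1.85 FPKM in Ch25h_KO and 1.28 and 1.12 FPKM in Ch25h_WT (limma adjusted p = 0.097). Cish, the STAT5-induced inhibitor most closely tied to the beta chain, was 8.61 and 7.49 FPKM in Ch25h_KO and 8.42 and 7.95 FPKM in Ch25h_WT, and its groups overlapped. Neither Pim2 nor Myc passed, at log2 changes of -0.12 and -0.072.

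Genes induced by GM-CSF in macrophages included 8 tested members, of which 7 were higher and 1 lower, with a median log2 change of 0.13. None passed with limma, and 3 were higher and 0 lower at unadjusted p under 0.05, beside 9.38% and 11.5% of all tested loci. Cd1d1, counted among the 7, was 1.06 and 1.20 FPKM in Ch25h_KO and 0.746 and 1.04 FPKM in Ch25h_WT. Its Ch25h_WT mean of 0.894 FPKM was under the filter, which it reached through its Ch25h_KO level. Its place in the count and the median is therefore no independent support for a difference. Il1rn, the secreted antagonist of IL-1, was 1414 and 1438 FPKM in Ch25h_KO and 963 and 999 FPKM in Ch25h_WT (limma adjusted p = 0.052). Inhba, which encodes the activin A subunit, was 7.77 and 8.74 FPKM in Ch25h_KO and 4.88 and 4.48 FPKM in Ch25h_WT (limma adjusted p = 0.066). Irf4, a transcription factor on this list and on the next, was 17.8 and 18.3 FPKM in Ch25h_KO and 14.3 and 14.6 FPKM in Ch25h_WT (limma adjusted p = 0.104).

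Transcription factors known to act on the CSF and CSF receptor genes were 17 higher and 4 lower among 21 tested. None passed with limma, and the median log2 change was 0.15. At unadjusted p under 0.05, 10 were higher and 3 lower, beside 9.38% and 11.5% of all tested loci. Like the other lists, this one was chosen with earlier results of these data known, so its counts are no independent support. Fos, a subunit of AP-1, was 33.0 FPKM in both Ch25h_KO libraries, against 26.4 and 26.3 FPKM in Ch25h_WT (limma adjusted p = 0.097). Cebpd, a C/EBP factor named after its value was seen, was 28.7 and 25.4 FPKM in Ch25h_KO and 20.2 and 19.8 FPKM in Ch25h_WT (limma adjusted p = 0.110). On the lower side, the NF-kB subunit gene Rel was 10.1 and 9.62 FPKM in Ch25h_KO and 12.8 and 11.4 FPKM in Ch25h_WT (limma adjusted p = 0.158). Ets1 was 11.6 and 12.1 FPKM in Ch25h_KO and 14.8 and 14.1 FPKM in Ch25h_WT (limma adjusted p = 0.124).

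**Figure D4:**
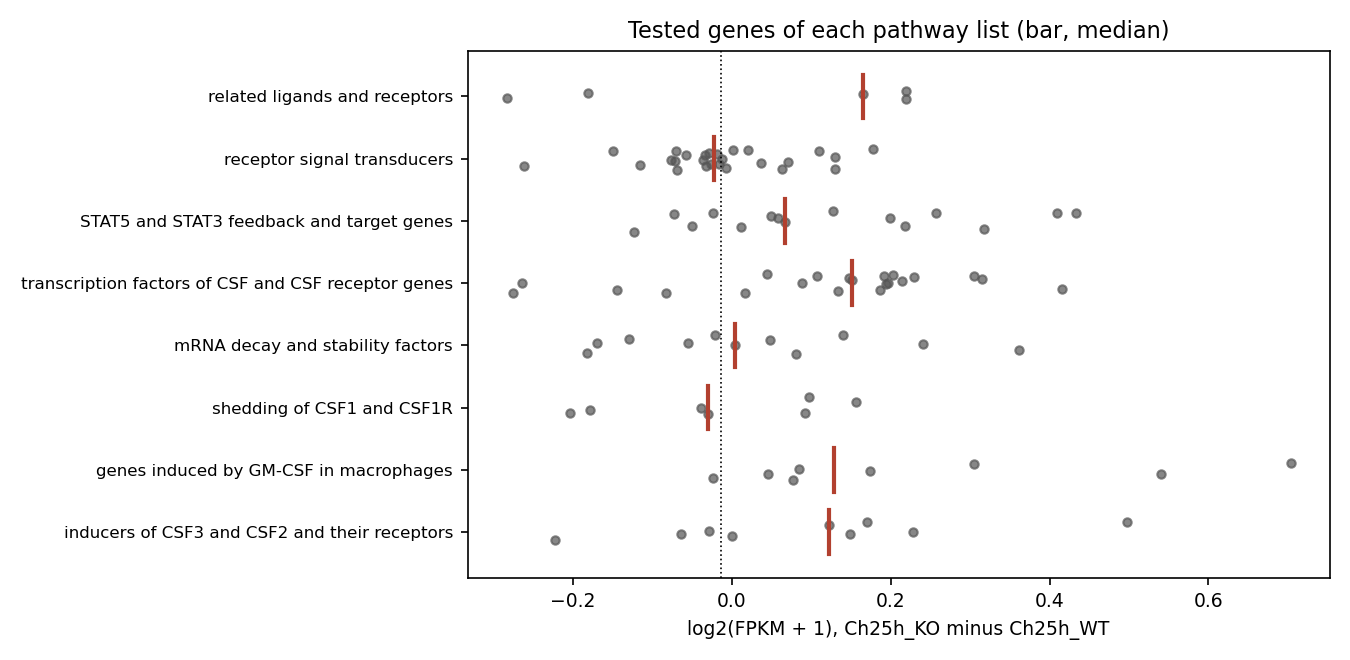
Difference of log2(FPKM + 1), Ch25h_KO minus Ch25h_WT (horizontal axis), of each tested gene in 8 pathway lists, with a bar at the list median and a dotted line at the median of all tested loci (-0.014). The list medians run between -0.030 for shedding and 0.16 for related ligands and receptors, and none of the genes shown passed after adjustment.

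The upstream signals that induce Csf3 lay on both sides. Il1b, which encodes IL-1 beta, was 314 and 305 FPKM in Ch25h_KO and 211 and 227 FPKM in Ch25h_WT (limma adjusted p = 0.078). Il1a was 204 and 203 FPKM in Ch25h_KO and 175 and 172 FPKM in Ch25h_WT (limma adjusted p = 0.125). Tnf lay the other way, at 51.5 and 51.1 FPKM in Ch25h_KO and 60.0 FPKM in both Ch25h_WT libraries (limma adjusted p = 0.128). The lipopolysaccharide receptor gene Tlr4 differed little, with a log2 change of -0.063. Of 9 tested genes in this list 0 passed with limma, with a median log2 change of 0.12. At unadjusted p under 0.05, 4 were higher and 1 lower, beside 9.38% and 11.5% of all tested loci.

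Factors that act on the decay or stability of cytokine mRNA lay on both sides. Of 11 tested, 6 were higher and 5 lower, 0 passed with limma, and the median log2 change was 0.0041. There were 3 higher and 2 lower at unadjusted p under 0.05, beside 9.38% and 11.5% of all tested loci. Zc3h12a, the nuclease Regnase-1, was 74.1 and 73.2 FPKM in Ch25h_KO and 56.2 and 58.0 FPKM in Ch25h_WT (limma adjusted p = 0.088). Zfp36l2, a relative of tristetraprolin, was 74.5 and 72.9 FPKM in Ch25h_KO and 62.9 and 61.6 FPKM in Ch25h_WT (limma adjusted p = 0.123). Rc3h1 (Roquin-1) had a log2 change of -0.18 and Hnrnpd (AUF1) of -0.17, and neither passed. For the proteases that release CSF1 and CSF1R from the cell surface, Adam17 was 56.8 and 57.3 FPKM in Ch25h_KO and 66.7 and 62.7 FPKM in Ch25h_WT (limma adjusted p = 0.202). Its trafficking partner Rhbdf2 was 60.7 and 60.2 FPKM in Ch25h_KO and 54.9 and 53.4 FPKM in Ch25h_WT (limma adjusted p = 0.207). Of 7 tested members of that list 0 passed with limma, with a median log2 change of -0.030. It held 1 higher and 1 lower gene at unadjusted p under 0.05, beside 9.38% and 11.5% of all tested loci.

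The loci most like Csf3 over the 4 libraries were found by Euclidean distance between log2(FPKM + 1) values centred on their mean, with 7079 other loci averaging 5 FPKM or more as candidates. The nearest was Rgs1, a regulator of G protein signalling, at a distance of 0.051. It was 47.5 and 45.5 FPKM in Ch25h_KO, against 28.7 and 27.2 FPKM in Ch25h_WT. Fam26f followed at 0.061, with 11.4 and 10.7 FPKM in Ch25h_KO and 6.05 and 6.13 FPKM in Ch25h_WT. Prok2, which encodes the secreted peptide prokineticin 2, was at 0.070, with 47.9 and 45.6 FPKM in Ch25h_KO and 28.2 and 25.5 FPKM in Ch25h_WT. In each of the 3, as in Csf3, replicate 1 of Ch25h_KO was the highest library.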

How the data were processed

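Per the labels' protocols, total RNA was purified with a mirVana kit and standard Illumina libraries were made. TopHat2 2.0.14, Cufflinks 2.2.1, bcl2fastq and the build mm9 appear, without settings, in the submitters' processing notes. The sources used here do not give the annotation, strandedness or scaling. The authors deposited values per locus that fit FPKM in range and decimals; the header names no unit.

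The 24192 lines were joined into 23735 loci, of which 99.5% matched RefSeq names (GRCm38.p6, used for names and promoter sequence only). After scaling by relative depth, values of 90.6% of 2274 low loci (under 0.2 FPKM on average) were whole multiples of a common step (tolerance 0.01), and 0 per-sample columns were left out. FPKM are not counts, so limma 3.58.1 in R 4.3.3 was run on log2(FPKM + 1) with genotype as the term, which understates changes of low genes, after testing on simulated data. Lists are described by counts and medians. Members, lists and tests were chosen with earlier results of these data known. Named genes are the members, Ch25h, Apoe, at most 2 higher and 2 lower members per list by smallest p, any list member that passed, and the 3 loci nearest a member that passed. Other genes named (Cebpd, Cd1d1, Il34, Il3, Il5, Il3ra, S100a9, Camp, Mpo, Elane, Cxcr2, Ngp, Ltf, Tie1, Tek and Epx) were chosen after their values were seen. Alternatives were other pseudocounts, filters, scalings, a variance trend, unjoined lines, a replicate block and leaving out each library.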

Additional observations from a re-analysis of the deposited data

How the results depend on the processing

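All 7 tested members kept their direction under each of the 13 alternatives, and Csf2, tested with no filter, under 4 that left out a library (chosen after seeing the data; log2 change 0.085 to 0.65). The count of 44 loci became 29 with a pseudocount of 0.5 FPKM, 18 with no filter, 175 at a mean of 5 FPKM, 786 with trend and robust options, and 13 to 21 with a library left out, where the lone library is assumed to vary like the others. Csf3 did not pass with no filter (0.76, limma adjusted p = 0.057) or without each library (0.73 to 0.79). Csf2ra (0.41) and Csf3r (0.29) passed with trend and robust options. With the replicate number as a block, 6 loci passed and Csf3 (0.76) did not (limma adjusted p = 0.131). The deviations of same-numbered libraries were close to uncorrelated (0.012 across 10074 loci). The labels do not say whether such libraries share a preparation, and this correlation cannot settle it. The cause of these differences was not tested. Depth limits Csf2, and 2 libraries per group limit every call.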
